A study of Rattus norvegicus with 6 samples.

Results

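Potassium channel genes were examined in whole ovaries of neonatal rats. The members were chosen by name: every gene with a symbol that begins with Kcn, followed by letters and a number, was taken. Symbols came from RefSeq accessions, and an accession without a match was counted as a gene under its accession. A channel gene under such an accession would not be among the members. A gene with several probes was represented by the probe with the highest mean signal over the 6 arrays. This gave 89 members among 26903 genes with 1 probe each, of which 65 had a single probe and 24 had several. Female Wistar pups had been injected intraperitoneally with LPS of Salmonella enterica at 0.05 mg/kg, or with the same volume of saline, first on postnatal day (PND) 3 and again on PND 5, and their ovaries were collected on PND 7. LPS (lipopolysaccharide) comes from the cell wall of Gram-negative bacteria and activates innate immune cells. RNA of 3 LPS and 3 saline samples was hybridized to 6 single-colour arrays, so that the comparison asked which channel transcripts differed 2 days after the second injection. All animals were of the same strain, sex and age, and each treatment drew on several animals and more than 1 litter, but which of them entered an array was not given in the sources used here, and p-values measure only the spread between these arrays.

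Potassium channels are membrane proteins through which potassium ions leave or enter a cell, and they set its resting potential and the speed with which it repolarizes. Voltage-gated alpha subunits open on depolarization and assemble with auxiliary subunits that change their gating or their delivery to the membrane. Inward rectifiers and 2-pore-domain channels carry the resting conductance, and a further group opens in response to intracellular calcium or sodium. In the ovary, potassium channels are known from granulosa cells and oocytes, and in the adrenal gland they hold steroid-producing cells at a negative potential.

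All 6 arrays lay on 1 slide, with LPS replicate 1 and the 3 saline arrays in one row and LPS replicates 2 and 3 in another. Between 66.3% and 76.0% of the non-control spots of an array were well above background, which is the scanner software's call that a spot is brighter than its local background, and no such spot was saturated. Levels below are the log2 of the processed signal relative to the 75th percentile of the same array, so that 0 is the level of a bright probe, and they compare the arrays for 1 probe and not one gene with another. Markers of the oocyte and of granulosa cells were present on every array, with 8 of 8 and 5 of 6 measured genes well above background on all 6 arrays. Saline replicates 2 and 3 stood apart from the other arrays in adrenal transcripts. The summed linear level of 9 adrenal cortex markers, relative to the 75th percentile, was 5.27, 16.1 and 12.8 on LPS replicates 1 to 3 and 6.28 on saline replicate 1, but 243 and 312 on saline replicates 2 and 3, and 6 of the 9 genes were lower after LPS by the criterion given below. For 8 measured markers of the adrenal medulla the sum was 2.89 to 5.29 on the LPS arrays, 5.51 on saline replicate 1 and 88.2 and 54.0 on saline replicates 2 and 3, with 6 of the 8 lower. No gene of either list was called higher. Hsd3b1 of the cortex list was well above background on every LPS array (1.84, 3.91 and 3.58 on replicates 1 to 3). Cyp11b1, Mc2r and Akr1b7 were well above background on no LPS array. Without saline replicates 2 and 3, the log2 fold change of Cyp11b1 went from -8.56 to -0.30 and that of Chgb from -7.17 to -0.22. Those of Agtr1b, Hsd3b1, Mrap and Phox2a turned positive, at 1.60, 0.81, 0.43 and 0.41, and the others stayed negative. Agtr1b was dim, at -6.55 on saline replicate 1. Values without saline replicates 2 and 3 are therefore given beside many of the differences below. The part of the adrenal transcripts in these results was not tested.

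Of the 89 members, 42 (47.2%) were well above background on all 6 arrays, 16 on some arrays and 31 (34.8%) on none. Over all genes these shares were 60.7% for all 6 arrays and 24.5% for none. The 2-pore-domain channels and the calcium- and sodium-activated channels were measured most completely, with 8 of 13 and 7 of 11 members on all 6 arrays. Of the 38 voltage-gated alpha subunits 18 were measured on every array, and of the 12 auxiliary subunits 5 were. The share of members well above background on no array was highest among the inward rectifiers, at 9 of 15, against 15 of 38 among the voltage-gated alpha subunits.

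**Figure D1:**
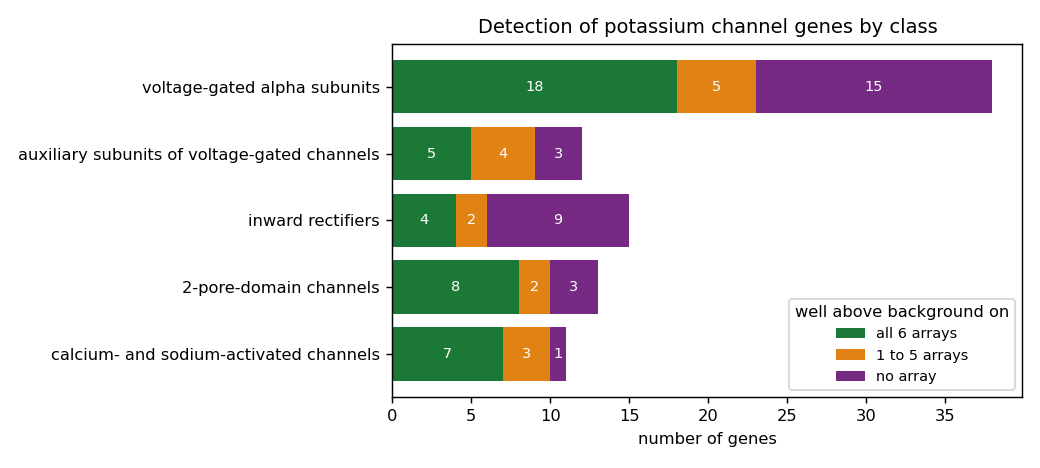
Number of potassium channel genes (horizontal axis) in each class (bars), split by whether the gene's probe was well above background on all 6 arrays, on 1 to 5 arrays or on no array. The largest green share is that of the calcium- and sodium-activated channels (7 of 11) and the largest purple share that of the inward rectifiers (9 of 15).

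The criterion for a called gene was at least a 2-fold difference at an unadjusted p under 0.05 in limma, a linear model fitted over all probes with a spread shared between them. By this criterion 1 of the 89 members, Kcnk3, was lower after LPS and 0 were higher. Over all genes 1.03% were called lower and 0.539% higher, so that the share of the members (1.12% lower) was near that of all genes. After Benjamini-Hochberg adjustment over all 30367 probes, 0 of the members had an adjusted p under 0.05 by limma, as did 0% of all probes. The number of members was also 0 by a test added here, which takes the spread of each probe alone. An unadjusted limma p under 0.05 was found for 18 of the 89 members and 15.9% of all genes. The smallest adjusted limma p of a member was 0.271. Of these 18 members, 3 (Kcnk3, Kcne5 and Kcna6) were well above background on all 6 arrays, which is 7.14% of the 42 members so measured against 4.09% of all such genes, and 15 were above background on no array.

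Among the 42 members well above background on every array, 23 differences were positive and 19 negative, from -3.32 to 0.56 on the log2 scale, and 31 lay within 0.5 of 0. Their median log2 fold change was 0.02, and that of all 16317 genes so measured was also 0.02. At least a 2-fold difference at an unadjusted p under 0.05 was met by 1 of the 42 members, against 0.999% of these genes. The LPS arrays all lay above the saline arrays for 3 members (Kcnab1, Kcne5 and Kcns3, 7.14%), against 5.33% of all such genes. All LPS arrays lay below all saline arrays for 4 members (Kcnk3, Kcnk2, Kcnh6 and Kcnj12, 9.52%), against 5.88%. For 3 arrays in each group the smallest p of an exact permutation test is 0.1.

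**Figure D2:**
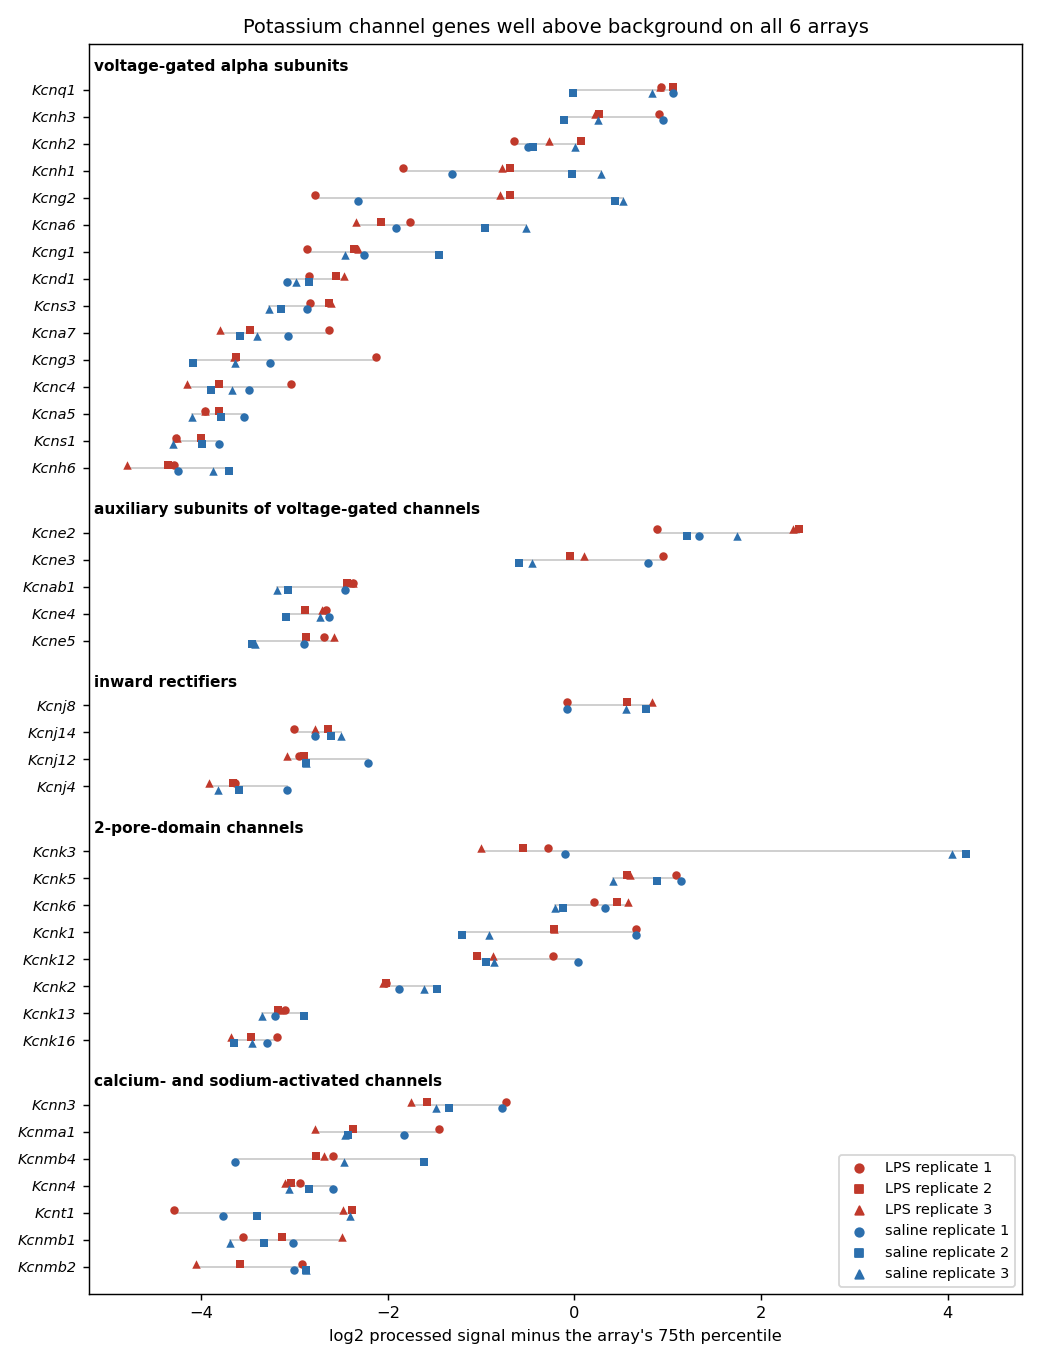
Level of potassium channel genes well above background on all 6 arrays (rows, grouped by class), as log2 processed signal minus the array's 75th percentile (horizontal axis). Red marks are LPS arrays, blue marks saline arrays, and the shape gives the replicate. Rows are ordered by their mean for display only, since levels of different probes cannot be compared, and Kcnk3 is the only row in which 2 saline arrays lie above 4 while the other 4 arrays lie below 0.

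The 2-pore-domain channels are dimeric leak channels that are open at rest, and Kcnk3 was the member with the largest difference among the 42. Kcnk3 encodes an acid-sensitive leak channel (TASK) known from the adrenal cortex, chromaffin cells, heart and brain stem. Its level was -0.28, -0.55 and -1.003 on LPS replicates 1, 2 and 3, and -0.10, 4.20 and 4.04 on saline replicates 1, 2 and 3. Saline replicates 2 and 3 were far above the other 4 arrays, and saline replicate 1 exceeded the highest LPS array by little, so the groups did not overlap but the saline arrays were split. The mean was -0.61 ± 0.37 (SD, n = 3) after LPS and 2.71 ± 2.44 (SD, n = 3) after saline, a log2 fold change of -3.32 (SE 1.11, 95% confidence interval -5.98 to -0.66) with a limma adjusted p of 0.271. The unadjusted limma p was 0.0216 and the exact two-sided permutation p was 0.1, the smallest that the design allows. In RNA of a whole organ, fewer cells of a type and less RNA per cell cannot be told apart.

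The arrays on which Kcnk3 was high were those on which the adrenal markers were high. Without saline replicates 2 and 3, its log2 fold change was -0.51 with a limma adjusted p of 0.864, with the lone saline array assumed to vary like the LPS arrays. Without saline replicate 1, on which neither Kcnk3 nor the adrenal lists were high, it was -4.73 with a limma adjusted p of 0.00160. The call was also lost, with an unadjusted p above 0.05, without saline replicate 2 (-2.58, limma adjusted p = 0.740), without saline replicate 3 (-2.66, limma adjusted p = 0.464) and without LPS replicate 3 (-3.13, limma adjusted p = 0.683). When the slide row entered the model as a block, so that LPS replicate 1 alone stood for the treatment, the value was -2.99 (limma adjusted p = 0.583) and Kcnk3 was not called. Nor was Kcnk3 called on the same values by the added test, which takes the spread of each probe alone.

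**Figure D3:**
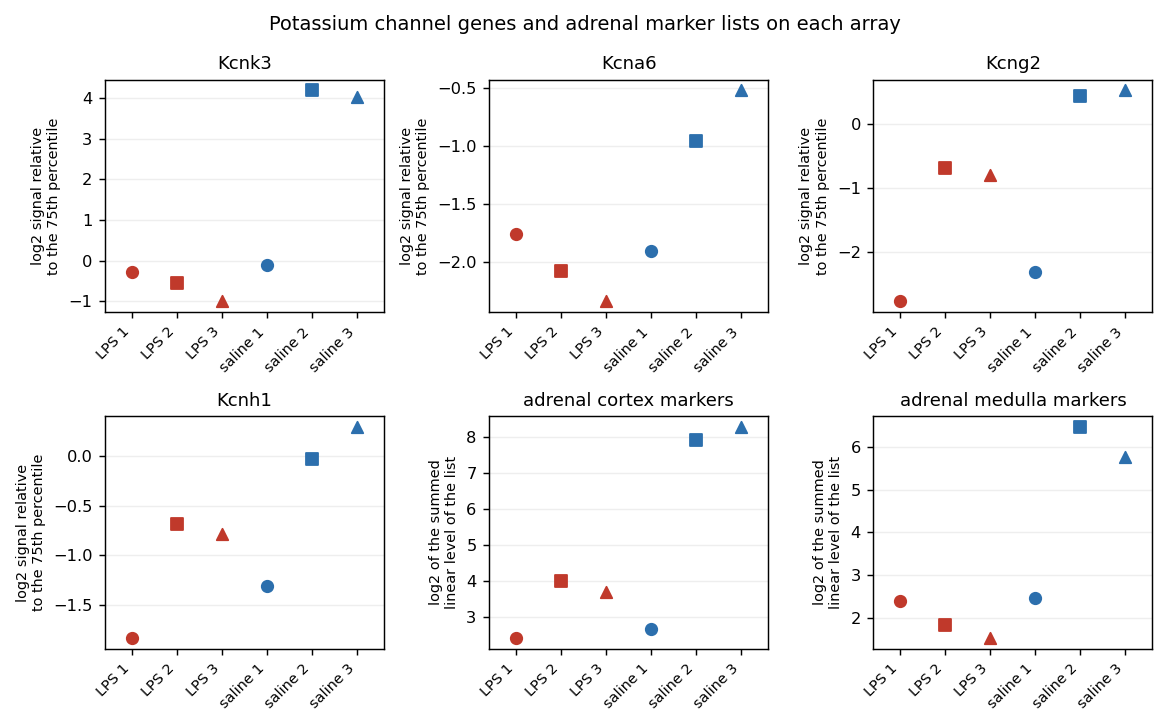
Level on each of the 6 arrays (horizontal axis; red LPS, blue saline) of Kcnk3, Kcna6, Kcng2 and Kcnh1, as log2 signal relative to the array's 75th percentile, and the log2 of the summed linear level of the adrenal cortex and adrenal medulla marker lists. Each point is 1 array, and the vertical scales differ between panels. The genes were chosen with their values known. Saline replicates 2 and 3 are the 2 highest arrays in every panel, but not on a second probe of Kcna6, which is not shown.

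The other 2-pore-domain channels measured on all 6 arrays had log2 fold changes between -0.38 and 0.56. Kcnk9 encodes another acid-sensitive TASK subunit of the adrenal cortex that can pair with Kcnk3. Its level was -4.60, -4.74 and -5.44 after LPS and -4.86, -3.83 and -4.48 after saline. The probe exceeded background on a single array of each treatment and the groups overlapped, so no fold change is given for it. Kcnk2 encodes a TREK channel that opens on membrane stretch and heat, and its level was -2.02, -2.02 and -2.05 after LPS and -1.88, -1.48 and -1.61 after saline. Every LPS array of Kcnk2 lay below every saline array, with a log2 fold change of -0.38 ± 0.17 (SE) and a limma adjusted p of 0.343 (exact two-sided permutation p = 0.1), and without saline replicates 2 and 3 it was -0.15. Another 2 probes of Kcnk2, bright enough on every array too, gave -0.12 and -0.16.

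Kcnk1 and Kcnk6, of the weakly inward-rectifying TWIK group found in epithelia, had positive differences. The level of Kcnk1 was 0.66, -0.22 and -0.22 after LPS and 0.66, -1.21 and -0.92 after saline. Replicate 1 was the highest array of both treatments, and the difference was 0.56 ± 0.52 (SE, limma adjusted p = 0.755). Without saline replicate 1 it was 1.14 and met the 2-fold criterion (limma adjusted p = 0.191), and without saline replicates 2 and 3 it turned to -0.58. For Kcnk6 the level was 0.21, 0.46 and 0.58 after LPS and 0.32, -0.12 and -0.20 after saline, with overlap through saline replicate 1 and a log2 fold change of 0.41 ± 0.21 (SE), which was 0.092 without saline replicates 2 and 3. Kcnk13 and Kcnk16 encode a THIK channel inhibited by halothane and a TALK channel of the pancreas. On the probes used they were among the members with the smallest differences, at 0.01 ± 0.18 and 0.03 ± 0.20 (SE). Other probes gave 0.05 ± 0.30 (SE) for Kcnk13, and -0.24 ± 0.22 and -0.25 ± 0.21 (SE) for Kcnk16.

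Kcnk5 and Kcnk12 were also measured on all 6 arrays and did not meet the criterion (log2 fold changes of -0.07 and -0.13). Over the 8 measured members of the class 4 differences were positive and 4 negative, with a median of -0.03. Kcnk4 and Kcnk9 were above background on some arrays, and Kcnk10, Kcnk15 and Kcnk18 on none.

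Among the voltage-gated alpha subunits, several members had saline replicates 2 and 3 as the highest arrays, as Kcnk3 had. Kcnk2, Kcnj14, Kcnmb2 and Kcnmb4 of other classes had the same 2 arrays highest. The same 2 arrays were instead the lowest for Kcnab1, Kcne3, Kcne5, Kcnk1, Kcnk6, Kcnq1 and Kcns3. These orders were noticed after the values were seen, and the share of all genes with either was not counted. Kcna6, a Shaker-type delayed rectifier of neurons, had a level of -1.76, -2.08 and -2.34 after LPS and -1.91, -0.96 and -0.52 after saline. The groups overlapped through saline replicate 1, and the log2 fold change was -0.93 ± 0.37 (SE, unadjusted limma p = 0.0433, adjusted p = 0.292, exact two-sided permutation p = 0.2), short of 2-fold. Without saline replicates 2 and 3 it was -0.15. A second probe of Kcna6, well above background on all 6 arrays too, gave 0.01 ± 0.19 (SE), so the probes of this gene did not move alike. On the second probe saline replicates 2 and 3 were the lowest arrays, at -2.55 each.

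Kcng2 encodes a subunit that forms no channel alone and modifies other voltage-gated subunits. Its level was -2.78, -0.69 and -0.79 after LPS and -2.32, 0.43 and 0.52 after saline. Replicate 1 was the lowest array of both treatments and saline replicates 2 and 3 the highest, which left a log2 fold change of -0.96 ± 0.91 (SE, limma adjusted p = 0.761). Kcnh1, the ether-à-go-go channel of brain and dividing cells, also had replicate 1 as the lowest array of both treatments and saline replicates 2 and 3 as the highest, with a level of -1.83, -0.69 and -0.78 after LPS and -1.31, -0.03 and 0.29 after saline. Its log2 fold change was -0.75 ± 0.50 (SE, limma adjusted p = 0.576). With the replicate number as a block the same differences had an SE of 0.22 for Kcng2 and 0.18 for Kcnh1 (limma adjusted p = 0.167 for each), and neither reached 2-fold. Without saline replicates 2 and 3 the differences of both genes turned positive, at 0.90 for Kcng2 and 0.21 for Kcnh1, and without saline replicate 1 both met the criterion for lower genes, at -1.90 and -1.23. In the model with the slide row, Kcng2 was at -2.32 and Kcnh1 at -1.48 (limma adjusted p = 0.583 for each), and only Kcnh1 of these met the criterion.

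Promoter sequences of Kcna6, Kcng2 and Kcnh1 are shown, with saline replicates 2 and 3 the highest arrays on the probe used for each. These genes were chosen with their values known. The promoter of Kcne5, the auxiliary subunit described below, which was higher on every LPS array, is shown beside them. The sequences are those of RefSeq on the assembly GRCr8, run 5′ to 3′ on the gene's strand from 250 bases before the annotated start to 50 after it, and came from a table in which 61 of the 89 members, Kcnk3 not among them, had a match. Kcna6 lies at chr4:161262303-161262602 on the minus strand, Kcng2 at chr18:76083639-76083938 on the minus strand, Kcnh1 at chr13:106252966-106253265 on the plus strand and Kcne5 at chrX:110727800-110728099 on the minus strand. Capitals mark AAGGTCA or its reverse complement TGACCTT, letters recognised by Nr5a1, a nuclear receptor of adrenal and gonadal steroid-producing cells.
Kcna6: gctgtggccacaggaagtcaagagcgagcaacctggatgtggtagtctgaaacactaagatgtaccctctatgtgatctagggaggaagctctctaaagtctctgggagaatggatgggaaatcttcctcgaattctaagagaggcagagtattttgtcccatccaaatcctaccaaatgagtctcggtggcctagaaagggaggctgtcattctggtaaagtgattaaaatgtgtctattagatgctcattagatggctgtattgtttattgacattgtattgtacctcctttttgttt
Kcng2: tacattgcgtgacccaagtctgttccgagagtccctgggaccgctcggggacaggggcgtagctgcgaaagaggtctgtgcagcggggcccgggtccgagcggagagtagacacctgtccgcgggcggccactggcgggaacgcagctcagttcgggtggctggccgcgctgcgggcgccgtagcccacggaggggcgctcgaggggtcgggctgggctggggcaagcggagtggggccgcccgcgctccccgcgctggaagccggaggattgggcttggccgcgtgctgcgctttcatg
Kcnh1: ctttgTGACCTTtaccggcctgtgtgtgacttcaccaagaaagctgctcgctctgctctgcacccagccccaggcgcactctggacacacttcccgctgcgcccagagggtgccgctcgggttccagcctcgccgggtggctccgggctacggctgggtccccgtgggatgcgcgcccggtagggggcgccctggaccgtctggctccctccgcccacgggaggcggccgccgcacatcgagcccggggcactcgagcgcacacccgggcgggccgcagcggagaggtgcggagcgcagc
Kcne5: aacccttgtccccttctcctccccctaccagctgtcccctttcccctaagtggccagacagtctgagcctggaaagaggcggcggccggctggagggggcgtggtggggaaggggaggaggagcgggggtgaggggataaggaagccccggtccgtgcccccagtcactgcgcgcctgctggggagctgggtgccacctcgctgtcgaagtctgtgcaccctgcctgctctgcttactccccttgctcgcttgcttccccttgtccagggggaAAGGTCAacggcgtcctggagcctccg
The letters were chosen for the search after the sequences had been seen. They were found once in Kcnh1, on the opposite strand from position 6, and once in Kcne5, on the gene's strand from position 274, counted from the 5′ end, and not in the windows of Kcna6 and Kcng2. Over all 33469 promoters of that length in the table, 4.61% held them on either strand, and 6 of the 67 promoters of members did (8.96%). Among these 6 were the windows of Kcnh1 and Kcne5 that had been seen, and Kcnc2 entered with more than 1 promoter. The shares are therefore not a test of enrichment. The Kcna6 window held 43.0% G and C, against 67.0% to 72.7% in the other 3. A match of 7 letters is a description of the sequence and was not tested as a site.

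For Kcnh6, an ERG-type channel, the level was -4.29, -4.35 and -4.79 after LPS and -4.25, -3.70 and -3.88 after saline. All LPS arrays lay below all saline arrays, saline replicate 1 only just exceeding LPS replicate 1, and the log2 fold change was -0.54 ± 0.23 (SE, limma adjusted p = 0.309), and -0.23 without saline replicates 2 and 3.

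The largest positive difference among the measured alpha subunits was that of Kcng3, another silent subunit, chosen for mention after its values were seen. Its level was -2.13, -3.63 and -3.64 after LPS and -3.26, -4.09 and -3.63 after saline. LPS replicate 1 was the highest array, the groups overlapped, and the log2 fold change was 0.53 ± 0.46 (SE, limma adjusted p = 0.721), or 0.13 without saline replicates 2 and 3. Kcns3, a silent subunit that modifies other alpha subunits, had a level of -2.83, -2.63 and -2.61 after LPS and -2.86, -3.15 and -3.27 after saline. Its groups did not overlap, replicate 1 of both treatments being nearly equal, and the log2 fold change was 0.40 ± 0.18 (SE, limma adjusted p = 0.335), and 0.17 without saline replicates 2 and 3. Kcnd1, a channel of the transient A current, had a level of -2.85, -2.56 and -2.47 after LPS and -3.08, -2.84 and -2.98 after saline, and LPS replicate 1 fell just below saline replicate 2. The log2 fold change of Kcnd1 was 0.34 ± 0.18 (SE), and 0.46 without saline replicates 2 and 3.

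Kcnq1, the pore of the slow delayed rectifier of heart and of epithelial potassium channels, had a level of 0.93, 1.06 and 0.91 after LPS and 1.05, -0.01 and 0.83 after saline. Saline replicate 2 alone was low, the groups overlapped, and the log2 fold change was 0.34 ± 0.29 (SE), which turned to -0.086 without saline replicates 2 and 3. Kcnh2, the ERG channel of the cardiac rapid delayed rectifier, differed by 0.03 ± 0.25 (SE), and its 95% confidence interval ran from -0.57 to 0.63. Kcnc4, a Shaw-type channel, differed by 0.02 ± 0.31 (SE).

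Across the 18 voltage-gated alpha subunits measured on all arrays, 10 differences were positive and 8 negative, with a median of 0.02. Others measured in this group were Kcna5, Kcna7, Kcng1, Kcnh3 and Kcns1, and no member of it met the criterion. A further 5 were above background on some arrays (Kcnb2, Kcnd2, Kcnf1, Kcnq3 and Kcnv2). The 15 above background on no array were Kcna1, Kcna2, Kcna3, Kcna4, Kcna10, Kcnc1, Kcnc2, Kcnd3, Kcng4, Kcnh4, Kcnh5, Kcnh7, Kcnh8, Kcns2 and Kcnv1.

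The auxiliary subunits of voltage-gated channels were the class in which all measured members had a positive difference, 5 of 5, with a median log2 fold change of 0.45, and 0 met the criterion. Kcne5 encodes a small membrane-spanning subunit that reduces the current of Kcnq1. Its level was -2.69, -2.88 and -2.58 after LPS and -2.90, -3.46 and -3.42 after saline. Every LPS array lay above every saline array, saline replicate 1 being close to LPS replicate 2, and the log2 fold change was 0.55 ± 0.21 (SE, unadjusted limma p = 0.0391, adjusted p = 0.286, exact two-sided permutation p = 0.1). A second probe of Kcne5 gave 0.64 ± 0.20 (SE). Kcnab1, a cytoplasmic beta subunit that speeds the inactivation of Shaker-type channels, had a level of -2.37, -2.44 and -2.37 after LPS and -2.46, -3.07 and -3.18 after saline. Its LPS arrays were nearly equal, the saline arrays were spread below them, and the log2 fold change was 0.51 ± 0.23 (SE, limma adjusted p = 0.329). In both genes saline replicate 1 lay near the LPS arrays, and without saline replicates 2 and 3 the differences were 0.19 for Kcne5 and 0.06 for Kcnab1.

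Kcne2, Kcne3 and Kcne4, related subunits that were chosen for mention after their values were seen, were the other measured members of the class at 0.45 ± 0.43, 0.42 ± 0.44 and 0.06 ± 0.19 (SE). Without saline replicates 2 and 3, Kcne3 and Kcne4 turned negative, at -0.45 and -0.12, and Kcne2 stayed positive, at 0.55. This left 3 of the 5 measured auxiliary subunits with a positive difference. Kcne3, the partner of Kcnq1 in epithelia, had a level of 0.95, -0.05 and 0.10 after LPS and 0.79, -0.60 and -0.45 after saline. As for Kcnk1, replicate 1 was the highest array of each treatment. The summed linear level of 6 measured markers of oviduct and epithelium was 46.7 and 45.1 on LPS and saline replicate 1, against 25.6 and 26.3 on the other LPS arrays and 17.3 and 21.5 on the other saline arrays, and each of these markers was measured on every array. The part of these markers in the levels of Kcnk1 and Kcne3 was not tested. Kcne1, the partner of Kcnq1 in the cardiac slow delayed rectifier, was above background on no array, as were Kcnip2 and Kcnip4, while Kcnab2, Kcnab3, Kcnip1 and Kcnip3 were above it on some.

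Inward rectifiers pass potassium more readily into than out of the cell. Kcnj8, which forms the ATP-sensitive channel of vascular smooth muscle together with Abcc9, had the smallest difference of the 4 members of this class measured on all 6 arrays. Its level was -0.08, 0.56 and 0.83 after LPS and -0.08, 0.76 and 0.56 after saline. Replicate 1 was the lowest array of both treatments and the other 4 arrays were interleaved, with a log2 fold change of 0.02 ± 0.32 (SE, 95% confidence interval -0.74 to 0.79), or 0.52 without saline replicates 2 and 3. Kcnj12, a strong inward rectifier of heart and skeletal muscle that was chosen for mention because its groups did not overlap, had a level of -2.95, -2.90 and -3.08 after LPS and -2.21, -2.88 and -2.87 after saline. Saline replicates 2 and 3 lay just above the LPS arrays, saline replicate 1 was well above them, and the log2 fold change was -0.32 ± 0.23 (SE, limma adjusted p = 0.623), or -0.76 without saline replicates 2 and 3.

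Kcnj5 encodes a G protein-gated subunit of the heart and of the aldosterone-producing zone of the adrenal cortex. Its level was -6.21, -6.84 and -7.36 after LPS and -6.88, -4.58 and -5.63 after saline. The probe did not reach well above background anywhere, so neither an order of the arrays nor a fold change is read from it. Kcnj11, the pore of the ATP-sensitive channel of pancreatic beta cells, did not reach it either. With Kcnj4 and Kcnj14, 4 members of the class were measured on all arrays, 1 with a positive and 3 with a negative difference, at a median of -0.21. Kcnj3 and Kcnj9 were above background on some arrays, and Kcnj1, Kcnj2, Kcnj6, Kcnj10, Kcnj13, Kcnj15 and Kcnj16 on none.

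Kcnma1, the pore of the large-conductance channel opened by calcium and voltage, had a level of -1.46, -2.38 and -2.78 after LPS and -1.82, -2.43 and -2.46 after saline. Replicate 1 was the highest array of both treatments on this probe. The log2 fold change was 0.03 ± 0.37 (SE, 95% confidence interval -0.86 to 0.93), or -0.38 without saline replicates 2 and 3. A second probe, well above background on every array too, gave -0.19 ± 0.21 (SE), with saline replicate 1 the lowest saline array. Kcnmb2 encodes the inactivating beta subunit of the Kcnma1 channel. Its level was -2.92, -3.59 and -4.05 after LPS and -3.002, -2.88 and -2.88 after saline. The saline arrays lay close together, LPS replicate 1 was among them and the other LPS arrays were below. The log2 fold change was -0.60 ± 0.30 (SE, limma adjusted p = 0.374), and -0.52 without saline replicates 2 and 3. LPS replicates 2 and 3 shared a slide row that held no saline array, and within the model with the row the difference of Kcnmb2 was -0.0025 (limma adjusted p = 0.997).

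Of the 7 calcium- and sodium-activated members measured on all arrays, 3 differences were positive and 4 negative, with a median of -0.10, and none met the criterion. The other members of this group were Kcnmb1, Kcnmb4, Kcnn3, Kcnn4 and Kcnt1. Kcnmb4 differed by -0.10, and by 0.96 without saline replicates 2 and 3. Kcnt1, a sodium-activated channel, was chosen for mention after its values were seen. Its level was -4.29, -2.38 and -2.48 after LPS and -3.77, -3.41 and -2.40 after saline. Replicate 1 was the lowest array of both treatments, the reverse of the Kcnma1 probe used here. Kcnmb3, Kcnn1 and Kcnn2 were above background on some arrays and Kcnt2 on none.

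**Figure D4:**
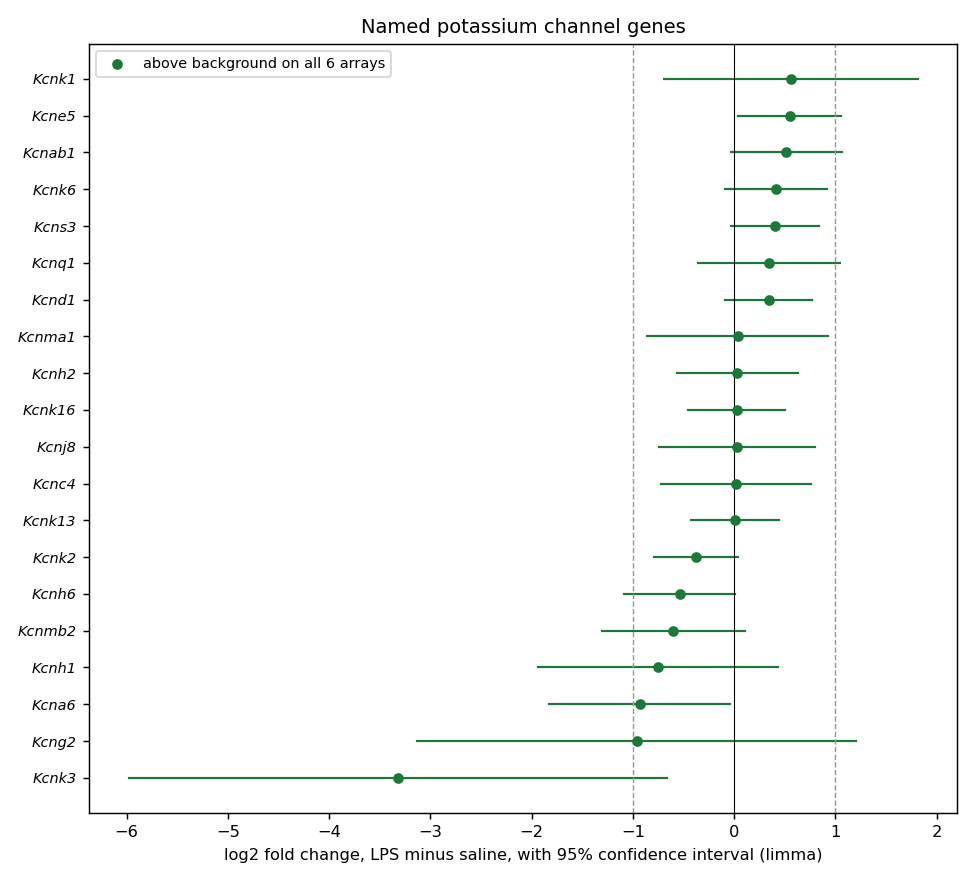
Log2 fold change, LPS minus saline, of potassium channel genes chosen by a fixed rule and well above background on all 6 arrays (rows), with the 95% confidence interval from limma (horizontal axis; dashed lines at a 2-fold difference). Points are the estimates. Of the genes shown only Kcnk3, at -3.32, lies past 2-fold, and its interval from -5.98 to -0.66 is the widest.

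For the 31 members above background on no array, differences followed those of all genes at the low end of the scale. Their median fitted log2 fold change was -0.60, between -1.12 and 0.21, and that of all 6579 genes above background on no array was -0.57. All LPS arrays lay below all saline arrays for 17 of these members (54.8%), against 57.7% of all such genes, and above them for 0, against 0.775%. Of these 31 members, 15 had an unadjusted limma p under 0.05, and all 15 were lower. This was a share near the 48.4% of all genes above background on no array that were lower at such a p. On such probes the processed signal can hold a surrogate value set by the software, and no fold change is drawn from them. For the 7 members well above background on arrays of a single treatment (Kcnb2, Kcnd2, Kcnf1, Kcnip1, Kcnj3, Kcnmb3 and Kcnq3) no lower bound above 1 could be set either.

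**Figure D5:**
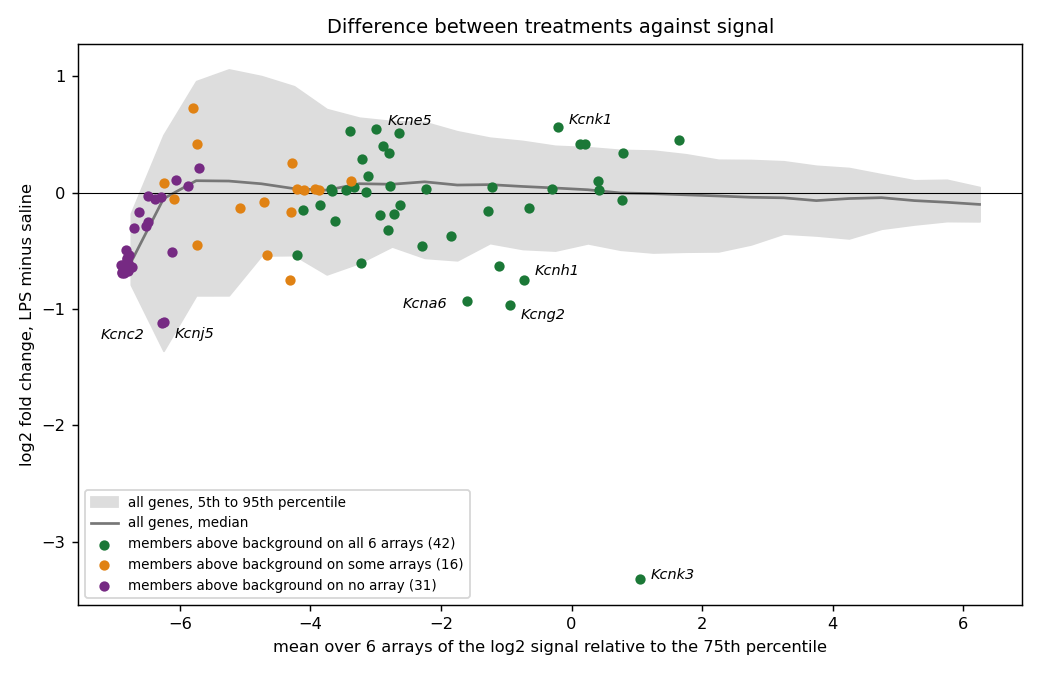
Log2 fold change, LPS minus saline (vertical axis), against the mean over 6 arrays of the log2 signal relative to the 75th percentile (horizontal axis) for the 89 potassium channel genes, coloured by the arrays on which they were well above background. The grey band spans the 5th to 95th percentile of all genes at the same level and the grey line is their median. Kcnk3 lies alone at -3.32, and the purple genes follow the fall of the grey line at the left.

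Genes that act beside potassium channels were counted in the same fit. Of 5 partner genes (Abcc8, Abcc9, Dpp6, Dpp10 and Kcnrg), 4 pacemaker channel genes, 5 cation-chloride cotransporter genes and 9 measured voltage-gated calcium channel genes, 0 were called in either direction. Abcc9, the sulfonylurea receptor that pairs with Kcnj8, differed by -0.18 ± 0.34 (SE). Of 7 subunits of the sodium-potassium pump, which builds the gradient that potassium channels use, 0 were called. The summed linear level of the pump genes was 30.6 to 32.8 on the LPS arrays and saline replicate 1 and 43.7 and 40.8 on saline replicates 2 and 3, the arrays with high Kcnk3. Of 13 voltage-gated sodium channel genes 1 was called lower, Scn3b, whose level was -3.60, -3.74 and -3.67 after LPS and -3.38, 0.04 and -1.75 after saline, again with saline replicates 2 and 3 highest. Its log2 fold change was -1.97, and -0.29 without these 2 arrays, where Scn3b was not called.

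Of the marker lists for other cell types, neurons had 3 of 7 genes called lower (Snap25, Stmn2 and Prph), with a summed linear level of 7.54 on saline replicate 2, 1.92 on saline replicate 3 and 0.726 to 1.03 on the other 4 arrays, and macrophages had 1 of 7 called higher (Mrc1). Without saline replicates 2 and 3, which left a lone saline array, the log2 fold changes of Snap25, Stmn2 and Prph were -0.50, -0.35 and -0.47. That of Mrc1 was 1.77. Tubb3 of the neuron list and Tek of the endothelium list were at 1.80 and 1.39. Their levels on saline replicate 1 were low, at -6.14 and -6.62, and Tek was well above background on no saline array. Syt1, one of the neuron markers, was above background on no array. With all 6 arrays no gene was called in the oocyte, granulosa, smooth muscle, skeletal muscle, kidney, oviduct and epithelium or endothelium lists.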

How the data were processed

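Ovarian RNA was measured on 6 arrays, 3 for each treatment, grouped by the treatment and replicate number in the labels. The authors deposited, for each array, spot intensity values extracted with Agilent Feature Extraction 10.5.1.1. The submitters' processing notes also name lumi. The labels give biotin as the label and the methods a Cy3 coupling. The deposited processed signal has the background subtracted and a surrogate value for dim spots. A deposited table of the whole study equals it within 0.497% and is not scaled between arrays.

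Log2 values, scaling and ratios were computed here from the deposited intensities. Flagged non-uniform and population outlier spots were removed, the log2 spots of a probe averaged, and the 75th percentile over the 30367 probes of each array subtracted. RefSeq accessions gave the gene symbols, through a table for GRCr8 from which no coordinates of probes were taken. This named 17998 probes with 15154 symbols, while 12369 probes kept their accession, among them 3408 RefSeq accessions without a match. The column for gene names in the scanner files was empty.

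limma 3.58.1 in R 4.3.3 compared the treatments over all probes, with Benjamini-Hochberg adjustment. A 2-fold difference and a p under 0.05 follow the methods, which name no adjustment. The test with the spread of each probe alone was added here and is not named in the methods for the arrays. The procedure was tested on simulated data. The members, lists and named genes were chosen with earlier results of these data known. The rule named each called member above background on all arrays of a treatment, the 12 lowest p-values and the 5 smallest differences among members above background on all arrays, the 8 largest differences among those above it on all arrays of a treatment, and 8 textbook members of adrenal, ovarian, epithelial or vascular tissue. Some members enter the counts but are not reported here by name. Members outside the rule are named where a count or class is completed.

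Arrays sharing a replicate number deviated together from their treatment means (correlations over 30364 probes of 0.298 for replicate 1, 0.215 for replicate 2 and 0.254 for replicate 3). Nothing else pairs them. With the replicate block, Kcnk3 was again the 1 member called (limma adjusted p = 0.205). No arrays were duplicates, with correlations between arrays of 0.962 to 0.995. The number of arrays limits the precision. The alternatives, 21 in all, covered background correction, normalization, the deposited table, dim and flagged spots, the test, slide row, replicate block, choice of probe and arrays left out.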

Additional observations from a re-analysis of the deposited data

How the results depend on the processing

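Kcnk3 was called lower under 15 of the 21 alternatives and its difference stayed negative under all of them, from -4.73 to -0.51. Kcnk3 had a single probe, so the alternatives on the choice of probe, counted among the 15, could not change its values. The number of members called higher, 0 in the values above, was 1 without normalization between arrays (Kcnip1) and 10 when the slide row was a block (Kcna2, Kcnb2, Kcng3, Kcnh4, Kcnip1, Kcnj2, Kcnj3, Kcnk10, Kcnmb3 and Kcnq3, of which only Kcng3 was well above background on all 6 arrays, in a fit that called 4.81% of all genes higher), and 0 to 1 when single arrays were left out (Kcnip1 without LPS replicate 2, Kcnk1 without saline replicate 1). The number called lower, 1 above, was 2 under quantile normalization (Kcnc2 and Kcnk3) and 0 to 7 when single arrays were left out. By the added test with the spread of each probe alone, the number called lower was 0. The number called lower was 7 without saline replicate 1 (Kcna6, Kcnc2, Kcng2, Kcnh1, Kcnj5, Kcnk3 and Kcnn2), where 2.45% of all genes were. It was 4 without LPS replicate 1 (Kcna6, Kcnc2, Kcnj3 and Kcnk3), where 1.95% were. Of these genes Kcna6, Kcng2, Kcnh1 and Kcnk3 exceeded background on every array, Kcnj3 and Kcnn2 on some and Kcnc2 and Kcnj5 on none. It was 0 without any 1 of LPS replicate 3 and saline replicates 2 and 3. In the slide row model the 1 lower member was Kcnh1. The median log2 fold change of the 42 members, 0.02 above, was -0.093 with normexp, -0.086 without background correction, 0.40 without normalization, -0.15 without saline replicates 2 and 3, and -0.102 to 0.068 when single arrays were left out. Without normalization the median of all probes was 0.34, against -0.04 scaled. The cause was not tested. With the replicate block the counts were 0 higher and 1 lower and the median 0.02, so no call changed. Of the 25 named members 11 kept their sign under every alternative and 14 changed it under at least 1, and 18 members were called under at least 1 alternative.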
